A study of Mus musculus with 79 samples.

Results

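Oxidative phosphorylation subunits are the proteins of the 5 complexes of the mitochondrial inner membrane that carry electrons to oxygen and make ATP. The genes described here were all those whose symbol in the deposited expression table begins with NDUFA, NDUFB, NDUFC, NDUFS or NDUFV (complex I), UQCR (complex III), COX4I, COX5, COX6, COX7 or COX8 (complex IV) or ATP5 (complex V), together with SDHA, SDHB, SDHC and SDHD (complex II), leaving out the assembly factors named NDUFAF. Of 85 such symbols, 80 had at least 1 TPM, a measure of transcript abundance scaled for length, in at least 4 libraries and are the members, out of 10672 genes kept by that rule and 20465 in the table. They comprised 37 genes named for complex I, 4 for complex II, 8 for complex III, 14 for complex IV and 17 for complex V. COX6A2, COX7B2, COX8B, COX8C and NDUFA4L2 were under the threshold, and COX4I2, with exactly 4 libraries at 1 TPM or more, was the member nearest to it.

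RNA was measured in mouse Th17 cells, helper T cells that make IL-17, differentiated in culture under conditions labelled pathogenic (Th17p, with IL1b, IL6 and IL23) or non-pathogenic (Th17n, with TGFb and IL6). Cells of each type were given EGCG, a catechin of green tea, at 20 µM or its solvent DMSO, or DHEA at 50 µM or its solvent methanol. All T cells carried the division dye CFSE, and each condition had libraries of unsorted cells (Total) and of cells sorted after exactly 1 division (Div.1). This made 16 groups, 14 with 5 libraries and 2 (Th17p and Th17n with DMSO, Div.1) with 4, from 5 mice per condition according to the labels. The strain, sex, age and genotype of the mice are not given in the sources used here. The titles give the well of each library. EGCG and DMSO libraries stood in well columns 1 to 5, and DHEA and methanol libraries in columns 6 to 10. The labels say only that each compound had its own solvent, and EGCG was set against DMSO and DHEA against methanol because they share well columns.

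Complex I oxidises NADH, complex II is succinate dehydrogenase and is shared with the citric acid cycle, complex III passes electrons to cytochrome c, complex IV reduces oxygen, and complex V is the ATP synthase driven by the proton gradient that the others build. Activated T cells rely heavily on glycolysis but keep the respiratory chain running, and helper T cell subsets are known to differ in how far they use it. A few catalytic or membrane-embedded subunits of complexes I, III, IV and V are encoded by mitochondrial DNA. The table held 0 mitochondrially encoded symbols, so all values below are for nuclear transcripts and not for proteins or respiration.

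The members were abundant and together took 3.03 to 4.02% of the TPM of a library, or 26830 to 35917 TPM. Of the 80, 74 had a mean over all libraries of at least 50 TPM and 5 a mean under 5 TPM. The highest means were 1977 TPM for ATP5B, the catalytic beta subunit of the ATP synthase, 1164 TPM for NDUFA4, which is named for complex I but is now regarded as a subunit of complex IV, 1065 TPM for ATP5A1, the alpha subunit, 986 TPM for COX8A and 891 TPM for ATP5D. The lowest were 0.401 TPM for COX4I2, an isoform known from lung, 2.55 TPM for COX6B2, an isoform known from testis, 3.0 TPM for ATP5SL and 3.57 TPM for ATP5S, which later names take out of the ATP synthase, and 3.77 TPM for COX7A1, an isoform known from heart and skeletal muscle. The median of the members' means was 259 TPM for complex I, 261 TPM for complex II, 503 TPM for complex III, 636 TPM for complex IV and 540 TPM for complex V. TPM are scaled for transcript length, so these levels can be set beside each other, but reads of near-identical copies, such as pseudogenes of these genes and the closely alike ATP5G1, ATP5G2 and ATP5G3, may have been divided between them.

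Promoters of 3 members that were lower with DHEA and hold a known element of respiratory-chain promoters, and of the members with the clearest rise under each compound, are shown so that the elements can be seen in place. Each is the sequence from 250 bases before to 50 bases after the RefSeq start of the gene (build GRCm38.p6), 5′ to 3′ on the gene's strand, and capitals mark a match on either strand to the core of NRF1 (CGCATGCG), ETS factors (CCGGAAGT) or YY1 (AAGATGGC). UQCRC1 (core protein of complex III) is at chr9:108936398-108936697 on the plus strand, NDUFB8 (complex I) at chr19:44555393-44555692 on the minus strand, and NDUFS7 (complex I iron-sulfur subunit) at chr10:80249199-80249498 on the plus strand. COX7A2L is at chr17:83514284-83514583 on the minus strand and COX6B2 at chr7:4753045-4753344 on the minus strand.
UQCRC1: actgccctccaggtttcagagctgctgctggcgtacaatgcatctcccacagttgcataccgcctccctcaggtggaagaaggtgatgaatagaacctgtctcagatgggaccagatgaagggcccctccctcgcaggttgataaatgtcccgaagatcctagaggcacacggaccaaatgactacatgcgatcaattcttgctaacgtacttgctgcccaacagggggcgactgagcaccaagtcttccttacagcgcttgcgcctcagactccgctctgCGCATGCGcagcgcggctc
NDUFB8: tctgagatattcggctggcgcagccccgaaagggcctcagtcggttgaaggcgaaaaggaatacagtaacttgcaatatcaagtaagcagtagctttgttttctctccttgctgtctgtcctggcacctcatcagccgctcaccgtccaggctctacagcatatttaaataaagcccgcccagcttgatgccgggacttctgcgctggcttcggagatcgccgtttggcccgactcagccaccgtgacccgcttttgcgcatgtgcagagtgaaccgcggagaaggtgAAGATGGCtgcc
NDUFS7: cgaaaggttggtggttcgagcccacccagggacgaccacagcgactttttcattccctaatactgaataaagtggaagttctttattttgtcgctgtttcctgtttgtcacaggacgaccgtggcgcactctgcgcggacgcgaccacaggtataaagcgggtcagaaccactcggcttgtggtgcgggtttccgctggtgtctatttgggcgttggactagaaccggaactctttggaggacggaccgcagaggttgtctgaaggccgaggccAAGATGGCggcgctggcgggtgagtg
COX7A2L: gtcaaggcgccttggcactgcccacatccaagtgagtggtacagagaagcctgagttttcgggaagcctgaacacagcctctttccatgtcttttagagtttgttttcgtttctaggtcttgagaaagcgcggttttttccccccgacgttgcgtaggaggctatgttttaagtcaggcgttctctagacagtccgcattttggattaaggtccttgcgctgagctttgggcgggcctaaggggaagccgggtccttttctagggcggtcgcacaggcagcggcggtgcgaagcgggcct
COX6B2: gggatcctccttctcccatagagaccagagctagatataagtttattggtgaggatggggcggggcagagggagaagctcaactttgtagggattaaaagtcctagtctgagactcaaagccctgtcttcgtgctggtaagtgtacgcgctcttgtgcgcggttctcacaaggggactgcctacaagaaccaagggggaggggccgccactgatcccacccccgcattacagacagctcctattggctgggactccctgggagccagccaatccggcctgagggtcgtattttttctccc

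Of 65 members with a promoter in the RefSeq table, 20 (30.8%) held at least 1 of the 3 elements, against 17.6% of 8191 other kept genes and 8.36% of all 27025 promoters of that length. The NRF1 core was in 8 members (12.3%), against 4.32% of the other kept genes and 1.91% of all promoters. The YY1 core was in 8 members (12.3%), against 5.18% and 2.88%, and the ETS core in 5 members (7.69%), against 9.34% and 4.0%. UQCRC1 holds the NRF1 core, and NDUFB8 and NDUFS7 hold the YY1 core, while the windows of COX7A2L and COX6B2 hold none of these letters. Of the 13 members that were lower with DHEA in every cell type and sort (below), 12 had a promoter in the table and 3 (25%) held an element. A match is a run of letters and was not tested as a binding site. ATP5A1, ATP5F1, ATP5S, ATP5SL, COX4I1, COX4I2, COX6C, NDUFA2, NDUFB9, NDUFS1, SDHC, UQCRB, UQCRC2 and UQCRQ were among those with no entry.

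The libraries had 9338 to 9845 genes at 1 TPM or more and a column sum of 880077 to 895017 TPM, and read depth was not given. Summed over CD3D, CD3E, CD3G, CD4, CD5, CD28 and LCK, T cell markers stood at 1522 to 2796 TPM, while B cell markers stood at 0.294 to 5.61 TPM and myeloid markers at 0.166 to 3.18 TPM. The library of well A4, labelled Th17n with DMSO, Div.1, was left out of every value: it had 0.394 TPM of FOXP3, 388 TPM of IL22 and 1.20 TPM of AQP3, where the other 4 libraries of that label had 71.5 to 136, 0.303 to 7.36 and 400 to 474 TPM, and the 4 libraries of Th17p with DMSO, Div.1, had 0.038 to 0.766, 264 to 380 and 0.414 to 0.544 TPM. Members followed the same line, with 199 TPM of NDUFB11 in well A4, 246 to 301 TPM in the libraries of its label and 195 to 214 TPM in those of Th17p.

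The libraries of well column 10, all with DHEA or methanol, stood apart in these genes. They had the lowest sum of the members in 8 of the 8 groups with such a well. Relative to columns 6 to 9 of the same groups, the median member had a log2 difference of -0.07 in column 10, with 45 of 80 members below 0, whereas the median of the other genes was 0.08. The shift went with transcript length: 21 of 22 members with transcripts of up to 600 nucleotides were lower in column 10 (median -0.35), as were 17 of 27 between 600 and 1000 nucleotides (median -0.07) and 7 of 30 above 1000 (median 0.08). ATP5K, NDUFA3, NDUFA1, COX7C and NDUFA5, all small subunits, differed by -1.21, -1.06, -0.74, -0.73 and -0.69. Other short genes moved the same way, with 124 of 158 lower (median -0.24), and the Spearman correlation of the shift with length was 0.62 over 79 members and 0.02 over 10180 other genes with a length. Column 10 held libraries of both DHEA and methanol, and counts without it are given beside those with it. Its part in the spread of the short members was not tested.

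**Figure D1:**
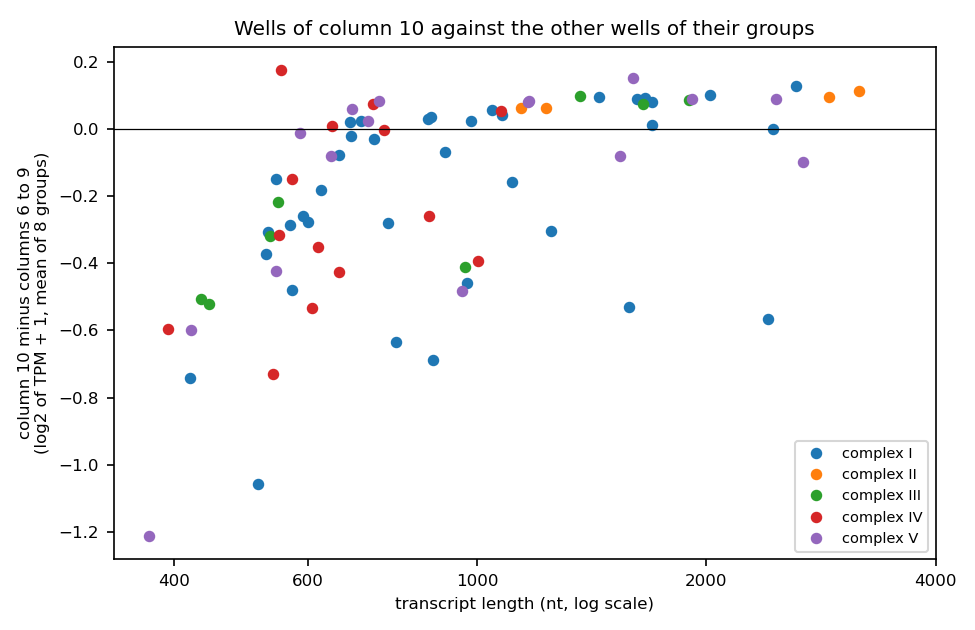
Log2 difference of the wells of column 10 from those of columns 6 to 9 in the same groups (y axis), against transcript length in nucleotides (x axis, log scale), for 79 members coloured by complex. The short members lie below 0, with a median of -0.35 up to 600 nucleotides, and the long ones around 0.08.

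**Figure D2:**
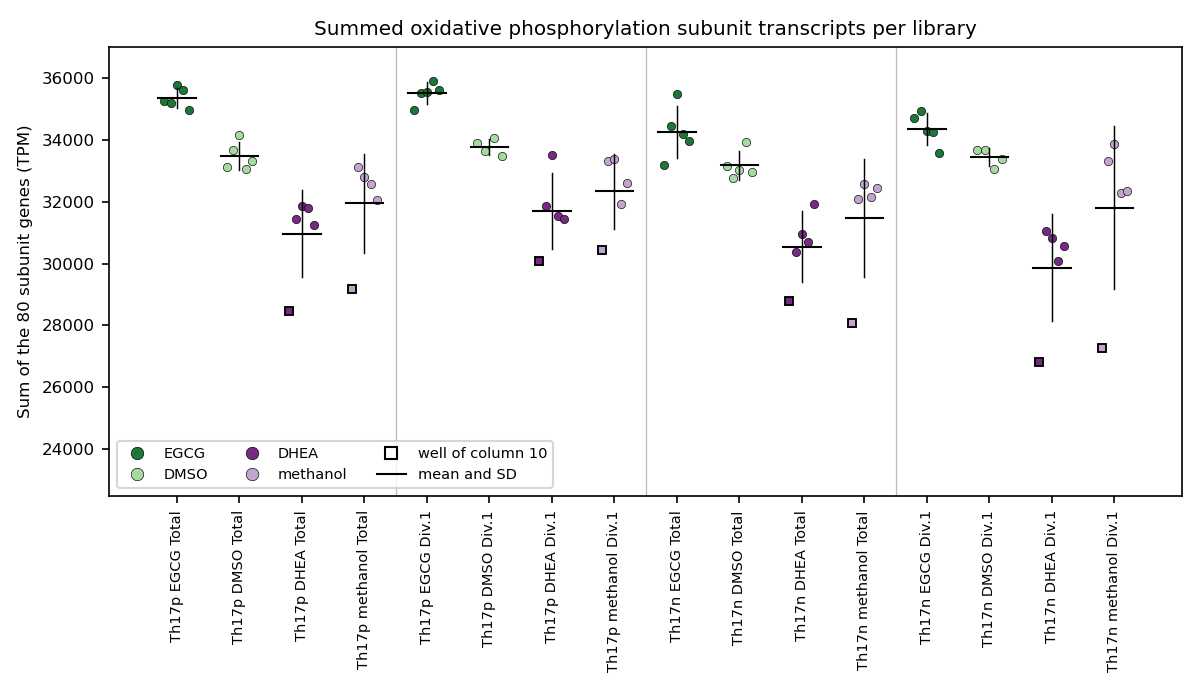
Sum of the 80 members in TPM (y axis, not starting at 0) for each library, by group (x axis), with the mean and SD. The lowest point of each DHEA and methanol group is the library of well column 10, and the EGCG libraries lie between 33181 and 35917 TPM.

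EGCG was compared with DMSO in each cell type and sort. Members moved in both directions. In unsorted Th17p cells 33 of 80 were higher and 13 lower with EGCG at an adjusted p under 0.05 (limma on log2(TPM + 1), Benjamini-Hochberg over 10672 genes), where 30.1% of all genes were called higher and 14.9% lower. Complex I accounted for 19 of the higher members and 4 of the lower, complex IV for 7 and 1, complex II for 2 of the higher, complex III for 2 and 3, and complex V for 3 and 5. In Th17p Div.1 cells 28 were higher and 12 lower (background 33.7% and 11.9%), in unsorted Th17n cells 14 and 9 (21.7% and 13.5%), and in Th17n Div.1 cells 16 and 13 (28.1% and 6.77%). The members were therefore called higher about as often as other genes or less often, except in unsorted Th17p cells, and the 13 lower members in Th17n Div.1 cells stood beside a background of 6.77%.

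The split between higher and lower members rested on the scale. The median of all 10672 genes was itself 0.09, 0.12, 0.05 and 0.11 higher on the log2 scale with EGCG in Th17p Total, Th17p Div.1, Th17n Total and Th17n Div.1 cells, and the median member 0.11, 0.09, 0.06 and 0.07 higher. When each library was rescaled so that its median gene ratio was even, which left those all-gene medians at 0.02, 0.02, 0.02 and -0.00, the members called were 12 higher and 24 lower in Th17p Total cells (background 23.5% and 21.1%), 5 and 24 in Th17p Div.1 (22.8% and 21%), 7 and 12 in Th17n Total (17.9% and 17.9%), and 3 and 22 in Th17n Div.1 (15.4% and 15.7%). The direction of the group as a whole therefore cannot be read from these data, and the sum of the members shows the same: it was 35358 ± 322 TPM with EGCG and 33474 ± 457 TPM with DMSO in unsorted Th17p cells (SD, n = 5 each), but 33343 ± 577 and 33342 ± 643 after rescaling. In Div.1 cells of both types the mean sum was higher with EGCG as deposited and lower with EGCG after rescaling. The members named next are given as deposited, with the rescaled value where it ends a call.

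**Figure D3:**
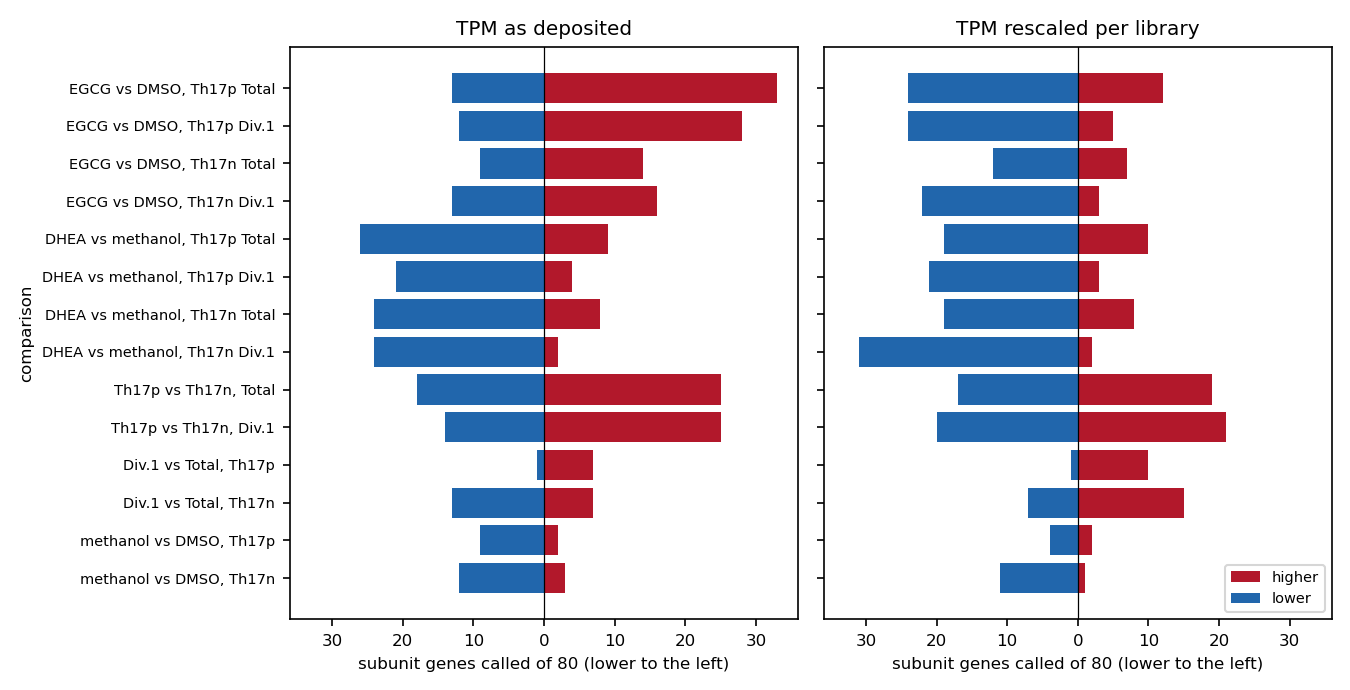
Number of members called higher (bars to the right) and lower (bars to the left, x axis) in each comparison (y axis), with TPM as deposited and after rescaling by the median ratio. For EGCG against DMSO the split turns from mostly higher, such as 33 and 13, to mostly lower, such as 12 and 24, while for DHEA against methanol the lower members outnumber the higher on both scales.

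COX6B2, a nuclear isoform of a complex IV subunit that is known mainly from testis, had the largest rise of any member with EGCG, at a low level. It stood at 2.35, 7.16, 8.32, 7.48 and 11.3 TPM in the EGCG libraries of unsorted Th17p cells, in the order of the well columns, against 0, 0.406, 0, 0.401 and 0.556 TPM in the DMSO libraries. In Th17p Div.1 cells it was at 8.53, 8.17, 7.83, 7.18 and 6.12 TPM with EGCG, against 1.17, 1.01, 1.82 and 1.49 TPM with DMSO. No EGCG library overlapped a DMSO library in any cell type or sort. The log2 differences were 2.62 ± 0.32 (SE) and 1.86 ± 0.34 in Th17p Total and Div.1 cells and 2.05 ± 0.32 and 2.29 ± 0.34 in Th17n Total and Div.1 cells (limma adjusted p 1.92e-10, 4.73e-06, 4.27e-07 and 9.91e-08), and it was the 1 member called higher in all 4 on both scales.

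Among complex I members, the accessory subunits NDUFA7 and NDUFA13 had the largest called rises in unsorted Th17p cells. NDUFA7 was at 468, 457, 464, 479 and 450 TPM with EGCG, against 320, 324, 328, 332 and 328 TPM with DMSO. NDUFA13, also known as GRIM-19, was at 240, 252, 244, 250 and 257 TPM with EGCG, against 174, 182, 193, 179 and 189 TPM with DMSO. For both genes every EGCG library was above every DMSO library there. The log2 differences were 0.50 ± 0.09 for NDUFA7 and 0.44 ± 0.08 for NDUFA13 (SE, limma adjusted p 2.28e-06 and 7.38e-06). NDUFA7 had 0.51, 0.25 and 0.23, and NDUFA13 0.34, 0.38 and 0.25, in Th17p Div.1, Th17n Total and Th17n Div.1 cells, all called with TPM as deposited. Together with COX6B2, NDUFA10 and SDHC they were the 5 members called higher in all 4 comparisons on that scale. The shares of all genes called higher, or lower, in all 4 EGCG comparisons are not given here. After rescaling, NDUFA7 lost its calls in Th17n Total and Th17n Div.1 cells (limma adjusted p 0.119 and 0.526), NDUFA13 in Th17p Div.1 and Th17n Div.1 cells (limma adjusted p 0.0819 and 0.409), and NDUFA10 in Th17n Div.1 cells (limma adjusted p 0.336).

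SDHC, 1 of the 2 membrane anchors of complex II, was at 117, 120, 114, 112 and 110 TPM with EGCG and at 81.0, 93.3, 89.0, 93.5 and 95 TPM with DMSO in unsorted Th17p cells, with no overlap. Its log2 difference was 0.34 ± 0.06 (limma adjusted p 6.04e-07) there and 0.32, 0.18 and 0.18 in Th17p Div.1, Th17n Total and Th17n Div.1 cells, of which the Th17n calls were lost after rescaling (limma adjusted p 0.0523 and 0.521). SDHB, the iron-sulfur subunit of the same complex, was at 425, 477, 446, 480 and 443 TPM with EGCG, against 387, 378, 374, 385 and 376 TPM with DMSO, in unsorted Th17p cells. All 4 subunits of complex II were called higher in Th17n Div.1 cells as deposited, at log2 differences of 0.13 for SDHA, 0.12 for SDHB, 0.18 for SDHC and 0.24 for SDHD, but after rescaling 1 of the 4 was, and SDHB was then at -0.01 (limma adjusted p 0.876).

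The members called lower with EGCG included core parts of complexes III, IV and V. COX4I1, the main isoform of the subunit that regulates cytochrome c oxidase, was at 439, 407, 412, 411 and 468 TPM with EGCG, against 493, 583, 607, 497 and 565 TPM with DMSO, in unsorted Th17p cells. In Th17p Div.1 cells it was at 427, 431, 505, 452 and 479 TPM with EGCG, against 550, 589, 627 and 677 TPM with DMSO. Every EGCG library was below every DMSO library in both. The log2 differences were -0.36 ± 0.07 and -0.41 ± 0.07 (SE, limma adjusted p 7.3e-06 and 1.54e-06). In unsorted Th17n cells the difference was -0.04 ± 0.07 (limma adjusted p 0.695), with EGCG at 500 to 657 TPM and DMSO at 528 to 611 TPM, and in Th17n Div.1 cells it was -0.27 ± 0.07 (limma adjusted p 0.00176).

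ATP5G1 encodes 1 of 3 versions of the c subunit, the rotating ring of the ATP synthase that carries protons. It stood at 520, 542, 539, 537 and 509 TPM with EGCG, against 618, 645, 638, 621 and 622 TPM with DMSO, in unsorted Th17p cells. In Th17p Div.1 cells it was at 493, 488, 527, 490 and 496 TPM with EGCG, against 625, 669, 637 and 650 TPM with DMSO. The groups did not overlap, and the log2 differences were -0.25 ± 0.04 and -0.37 ± 0.04 (SE, limma adjusted p 1.32e-07 and 7.2e-12). In Th17n cells they were smaller, at -0.09 in Total cells (limma adjusted p 0.0699) and -0.10 in Div.1 cells (limma adjusted p 0.0432, a call lost on leaving out any of 5 of the 9 libraries, with adjusted p up to 0.135). The 3 c subunit genes summed to 1506 ± 46.3 TPM with EGCG and 1758 ± 57.4 TPM with DMSO in Th17p Div.1 cells (SD, n = 5 and 4), and ATP5G1 took 33.1 ± 1.25% of that sum with EGCG and 36.7 ± 0.736% with DMSO.

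**Figure D4:**
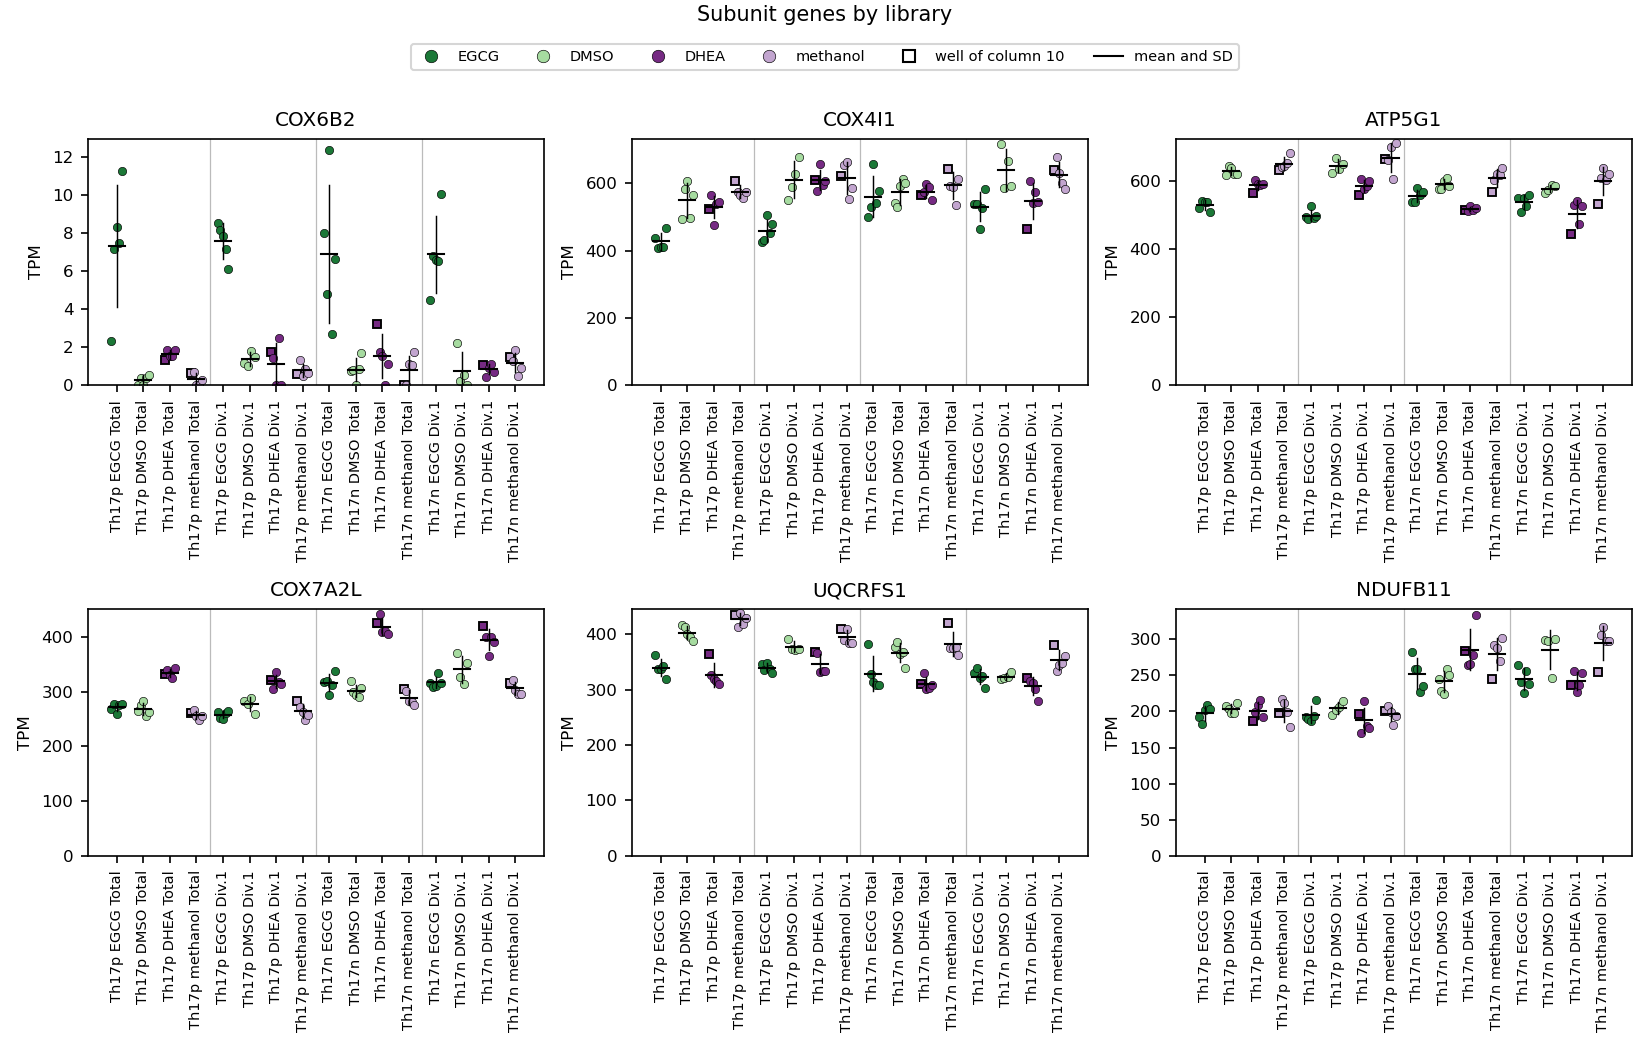
TPM of COX6B2, COX4I1, ATP5G1, COX7A2L, UQCRFS1 and NDUFB11 in each library (y axis, a scale for each gene), by group (x axis), with group means. COX6B2 is high in the EGCG groups, up to 12.3 TPM, COX7A2L is above its solvent in each DHEA group, and NDUFB11 is lower in Th17p than in Th17n.

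UQCRFS1, the Rieske iron-sulfur protein of complex III, was at 362, 338, 337, 343 and 318 TPM with EGCG, against 416, 413, 400, 395 and 388 TPM with DMSO, in unsorted Th17p cells. Its log2 difference was -0.25 ± 0.04 (limma adjusted p 2.93e-06) there, -0.15 in Th17p Div.1 and -0.16 in unsorted Th17n cells, all called, and 0.00 in Th17n Div.1 cells, where it was not. ATP5H, subunit d of the stalk of the ATP synthase, was at 786, 800, 761, 804 and 784 TPM with EGCG in Th17n Div.1 cells, against 999, 977, 890 and 1011 TPM with DMSO (log2 difference -0.30 ± 0.04, limma adjusted p 2.4e-08). ATP5H and NDUFS8, an iron-sulfur core subunit of complex I, were the 2 members lower in all 4 EGCG comparisons as deposited, NDUFS8 at -0.13, -0.28, -0.11 and -0.12. After rescaling 7 members were, with ATP5G1, ATP5G3, COX5A, UQCRC1 and UQCRFS1 added.

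The other named members with EGCG were as follows. COX6C, a small complex IV subunit, was 0.39 ± 0.13 higher in Th17p Div.1 cells (limma adjusted p 0.00888, and 0.135 after rescaling), and NDUFB7, a complex I subunit, was lower there, at -0.32 ± 0.06 (limma adjusted p 3.64e-05). NDUFB6, another accessory subunit, was 0.33 ± 0.05 higher in Th17n Div.1 cells (limma adjusted p 2.29e-08). UQCRB and ATP5G3 were lower in unsorted Th17n cells, at -0.22 and -0.17, with overlapping groups, and these calls were lost on leaving out any of 5 and 4 of the 10 libraries, with limma adjusted p up to 0.078 and 0.13. The muscle isoform COX7A1 had a difference of 0.67 in unsorted Th17n and 0.71 in Th17n Div.1 cells (limma adjusted p 0.0296 each), and lost the call without any of 3 of 10 and 5 of 9 libraries, with adjusted p up to 0.12 and 0.0721. Rescaling also ended its call in Th17n Div.1 cells (adjusted p 0.0847). ATP5J, coupling factor 6 of the ATP synthase stalk, differed by -0.33 in Th17n Div.1 cells (limma adjusted p 0.0143), a call lost without Th17n DMSO Div.1 replicate 2 or Th17n EGCG Div.1 replicate 4, with adjusted p up to 0.113. The count of 14 and 9 members in unsorted Th17n cells became 12 and 3 without Th17n EGCG Total replicate 3. Of the 80 members, 17 were called in none of the 4 EGCG comparisons, and 4 (ATP5C1, ATP5G2, ATP5J and NDUFV1) were called in both directions. The shares of all genes called in none, or in both directions, are not given here, so these counts cannot be set against them.

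DHEA was compared with methanol in the same way. Here lower members outnumbered higher ones in every cell type and sort and on both scales. In unsorted Th17p cells 9 of 80 members were higher and 26 lower with DHEA (background 20.9% and 26.8%), in Th17p Div.1 cells 4 and 21 (18.1% and 19.2%), in unsorted Th17n cells 8 and 24 (20.8% and 25.3%), and in Th17n Div.1 cells 2 and 24 (22.1% and 14.6%). The share of members called lower was somewhat above that of all genes in the first 3 comparisons and well above it in Th17n Div.1 cells, and the share called higher was under that of all genes in all 4. After rescaling the counts were 10 and 19, 3 and 21, 8 and 19, and 2 and 31, where 23.7%, 19.8%, 22.8% and 18.5% of all genes were called lower. On that scale the members' share of lower calls was thus near that of all genes in both Total comparisons and above it in both Div.1 comparisons. Without well column 10, a setting chosen after seeing the data, the counts were 16 and 28, 13 and 24, 12 and 25, and 2 and 33, where 19.6%, 16.2%, 19.1% and 20.0% of all genes were called higher and 26.3%, 18%, 23.5% and 13.1% lower. There the share of lower members was above that of all genes in all 4, and that of higher members was near it in Th17p. The median member differed by -0.04, -0.03, -0.03 and -0.08 on the log2 scale, and the median of all genes by -0.02, 0.00, -0.01 and 0.05.

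By number the lower members were mainly of complexes I, III and V, which hold most of the members. In complex II, 2 of 4 were lower and 1 higher in unsorted Th17p cells. There 2 of 4 were lower in unsorted Th17n, 1 in Th17p Div.1 and 0 in Th17n Div.1 cells. In unsorted Th17p cells 14 of 37 complex I members were lower and 3 higher, 4 of 8 of complex III were lower and 1 higher, and 6 of 17 of complex V were lower and 1 higher. In Th17n Div.1 cells 12 of 37 complex I, 3 of 8 complex III and 7 of 17 complex V members were lower. In complex IV, 3 of 14 members were higher in unsorted Th17p cells, and 2 were higher and 2 lower in Th17n Div.1 cells. The sum of the members was 30968 ± 1414 TPM with DHEA and 31946 ± 1591 TPM with methanol in unsorted Th17p cells (SD, n = 5 each), and 31590 ± 290 TPM and 32636 ± 444 TPM without well column 10 (n = 4 each). These sums are as deposited, and rescaled sums are not given here. After rescaling the median member differed by -0.0005 in Th17p Total, -0.03 in Th17p Div.1, 0.01 in Th17n Total and -0.12 in Th17n Div.1 cells. The lower sum in unsorted cells therefore cannot be read as independent of the scale.

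**Figure D5:**
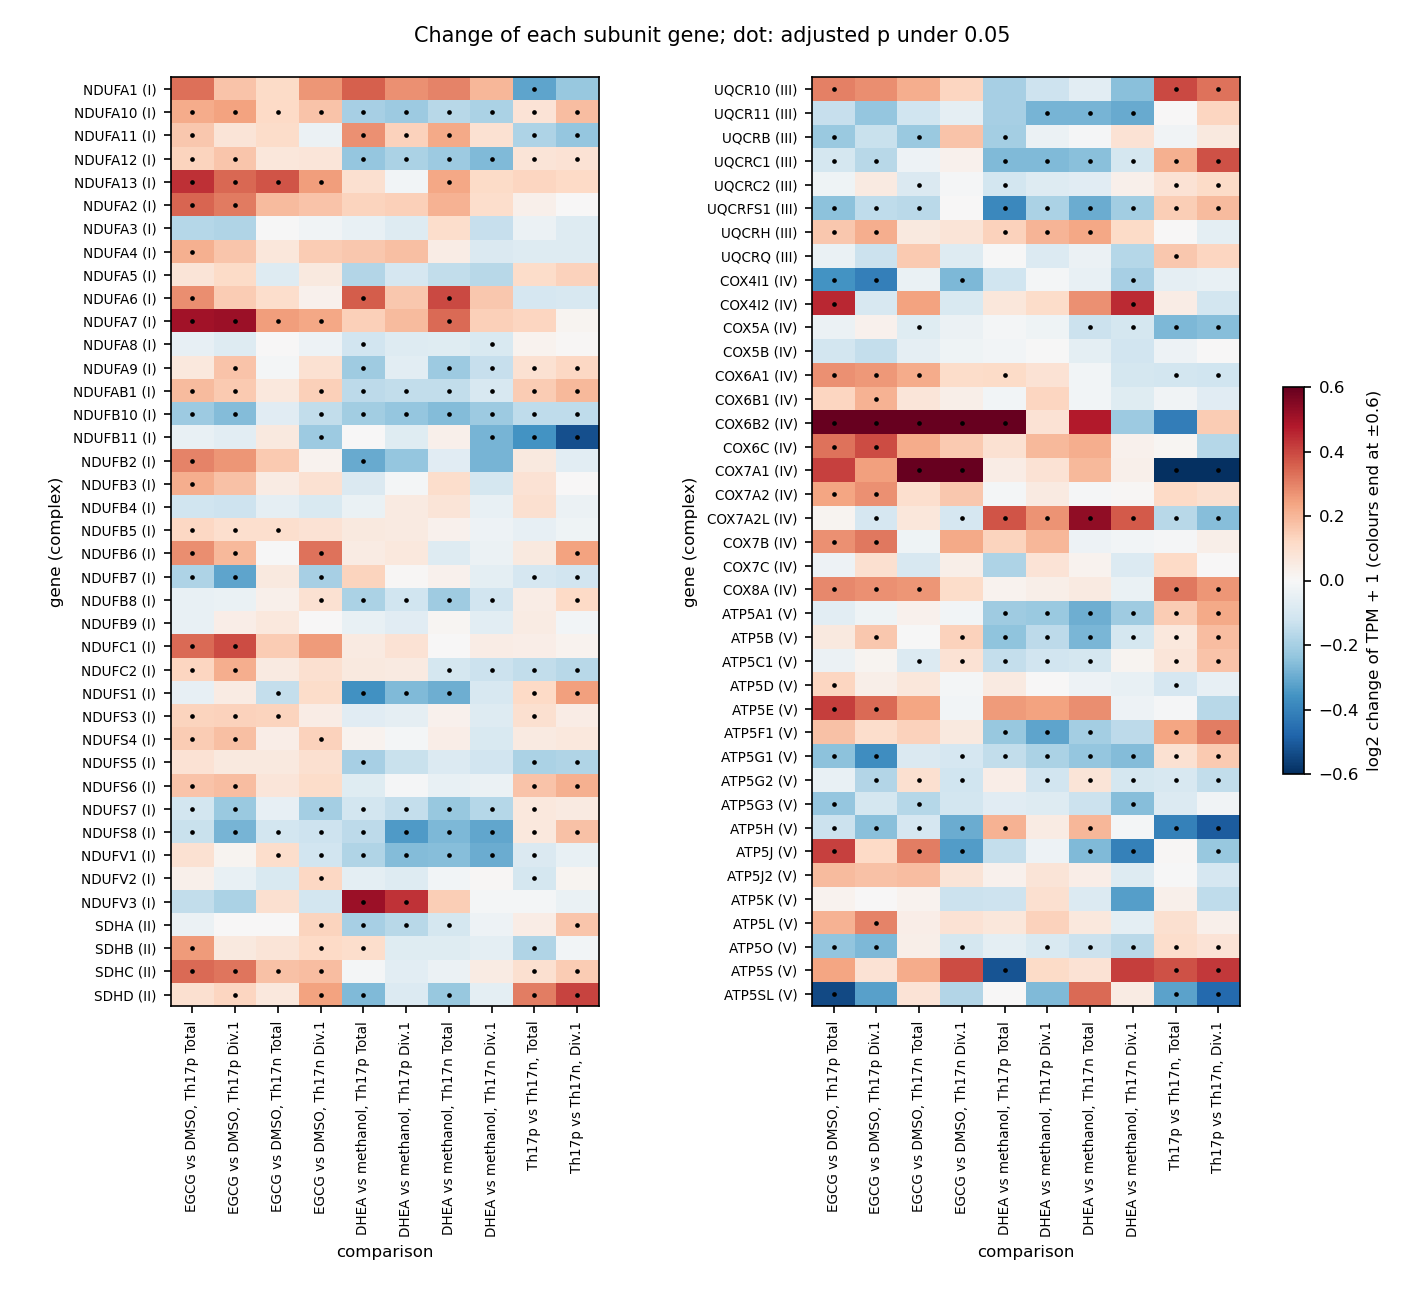
Log2 difference of 79 members (rows, by complex) in 10 comparisons (columns), with colours ending at -0.6 and 0.6 and dots where the limma adjusted p was under 0.05. COX7A2L is higher in the 4 DHEA columns where most called members of complexes I, III and V are lower, and COX6B2 is past the end of the scale in the 4 EGCG columns.

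COX7A2L was the 1 member called higher in all 4 DHEA comparisons, on both scales. It is related to the complex IV subunit COX7A2 and is known as SCAF1, a protein that joins complexes III and IV into supercomplexes. In unsorted Th17n cells it was at 442, 410, 412, 406 and 426 TPM with DHEA, against 302, 283, 282, 275 and 305 TPM with methanol. In unsorted Th17p cells it was at 340, 330, 325, 344 and 332 TPM with DHEA, against 267, 256, 248, 255 and 260 TPM with methanol. In Div.1 cells it was at 306 to 336 TPM with DHEA and 249 to 283 TPM with methanol in Th17p, and at 366 to 420 TPM with DHEA and 296 to 321 TPM with methanol in Th17n. No DHEA library overlapped a methanol library in any of the 4. The log2 differences were 0.38 ± 0.04 and 0.27 ± 0.04 in Th17p Total and Div.1 cells and 0.53 ± 0.04 and 0.37 ± 0.04 in Th17n Total and Div.1 cells (SE, limma adjusted p 2.72e-13, 2.62e-08, 3.13e-19 and 2.41e-12). With EGCG the same gene was at 0.02, -0.10, 0.07 and -0.10 in Th17p Total, Th17p Div.1, Th17n Total and Th17n Div.1 cells, the 2 in Div.1 cells being called (limma adjusted p 0.0301 and 0.0389).

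A set of 13 members was called lower with DHEA in all 4 comparisons: ATP5A1, ATP5B, ATP5G1, NDUFA10, NDUFA12, NDUFAB1, NDUFB10, NDUFB8, NDUFS7, NDUFS8, NDUFV1, UQCRC1 and UQCRFS1. The share of all genes called lower in all 4 is not given here, so the 13 cannot be set against it. After rescaling 12 members were called lower in all 4, with NDUFS1 added and ATP5G1 and NDUFS7 no longer among them. UQCRFS1 was at 326, 319, 316, 309 and 364 TPM with DHEA, against 412, 438, 419, 429 and 435 TPM with methanol, in unsorted Th17p cells. In unsorted Th17n cells it was at 330, 301, 303, 308 and 310 TPM with DHEA, against 375, 375, 377, 363 and 419 TPM with methanol. The groups did not overlap in either, and the log2 differences were -0.39 ± 0.04 and -0.30 ± 0.04 (SE, limma adjusted p 1.44e-11 and 3.27e-08), with -0.19 and -0.21 in Th17p and Th17n Div.1 cells. UQCRC1, whose promoter holds the NRF1 core, was at 565, 546, 506, 538 and 584 TPM with DHEA, against 624, 648, 623, 702 and 697 TPM with methanol, in unsorted Th17p cells, and differed by -0.27, -0.27, -0.25 and -0.11 in Th17p Total, Th17p Div.1, Th17n Total and Th17n Div.1 cells.

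In complex I, 2 core subunits led the falls. NDUFS1, the largest of its iron-sulfur subunits, was at 80.8, 76.3, 79.5, 76.3 and 84.6 TPM with DHEA, against 102, 102, 102, 103 and 104 TPM with methanol, in unsorted Th17p cells (log2 difference -0.36 ± 0.05, limma adjusted p 4.12e-09). It was also lower in Th17p Div.1 and unsorted Th17n cells, at -0.27 and -0.29, and had -0.10 in Th17n Div.1 cells (limma adjusted p 0.119). NDUFS8 was at 255, 270, 240, 240 and 255 TPM with DHEA, against 318, 325, 308, 318 and 324 TPM with methanol, in Th17p Div.1 cells. In Th17n Div.1 cells it was at 226, 235, 238, 236 and 228 TPM with DHEA, against 285, 285, 280, 301 and 293 TPM with methanol. Its log2 differences there were -0.34 ± 0.03 and -0.31 ± 0.03 (SE, limma adjusted p 1.09e-13 and 2.16e-12). NDUFV1, which binds NADH, was lower, with log2 differences of -0.18, -0.26, -0.25 and -0.30, and so were NDUFB8 and NDUFS7, which hold the YY1 core, with -0.19, -0.12, -0.21 and -0.11 and with -0.11, -0.14, -0.23 and -0.17, in the order Th17p Total, Th17p Div.1, Th17n Total, Th17n Div.1.

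In complex V, the alpha and beta subunits of the catalytic head were both lower. ATP5B, the most abundant member, was at 1804, 1788, 1694, 1728 and 1852 TPM with DHEA, against 2033, 2094, 2056, 2099 and 2216 TPM with methanol, in unsorted Th17p cells. ATP5A1 was at 850, 891, 841, 839 and 889 TPM with DHEA, against 1062, 1041, 1014, 1027 and 1133 TPM with methanol, in unsorted Th17n cells. The groups did not overlap for either gene. ATP5A1 differed by -0.21, -0.22, -0.29 and -0.21 and ATP5B by -0.24, -0.16, -0.27 and -0.10 in Th17p Total, Th17p Div.1, Th17n Total and Th17n Div.1 cells (limma adjusted p 4.01e-13 for ATP5A1 and 1.4e-12 for ATP5B in unsorted Th17n cells). ATP5G1 differed by -0.15, -0.19, -0.23 and -0.26 in the same order. In complex II, SDHD was lower in unsorted Th17p and Th17n cells, at -0.27 and -0.23, and SDHA, the flavoprotein that oxidises succinate, was lower in the first 3 of these comparisons, at -0.20, -0.16 and -0.11.

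Members of other complexes were also called higher with DHEA. In unsorted Th17p cells 3 were of complex I, 1 of complex II, 1 of complex III, 3 of complex IV and 1 of complex V. In unsorted Th17n cells 4 were of complex I, 1 of complex III, 1 of complex IV and 2 of complex V. These counts include COX7A2L. NDUFV3 was at 241, 278, 285, 287 and 198 TPM with DHEA, against 209, 195, 188, 182 and 132 TPM with methanol, in unsorted Th17p cells, the last value of each being well column 10. The groups overlapped in that well alone, and the log2 difference was 0.51 ± 0.12 (limma adjusted p 0.000429), with 0.43 ± 0.12 in Th17p Div.1 cells (limma adjusted p 0.00398). NDUFA6 was at 267 to 304 TPM with DHEA, against 170 to 236 TPM with methanol, in unsorted Th17n cells (log2 difference 0.40 ± 0.07, limma adjusted p 4.64e-06), and differed by 0.36 ± 0.07 in unsorted Th17p cells (limma adjusted p 2.21e-05). NDUFA7 was 0.34 ± 0.09 higher in unsorted Th17n cells (limma adjusted p 0.000956), and UQCRH, the hinge protein of complex III, was 0.20 ± 0.06 higher in Th17p Div.1 cells (limma adjusted p 0.00509). COX6B2 was at 1.31 to 1.87 TPM with DHEA and 0 to 0.685 TPM with methanol in unsorted Th17p cells (log2 difference 1.02, limma adjusted p 0.00556), and was not called in the other 3 DHEA comparisons.

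Further named falls were those of ATP5F1, subunit b of the ATP synthase stalk, at -0.32 ± 0.08 in Th17p Div.1 cells (limma adjusted p 0.000695), and of ATP5J, at -0.40 ± 0.10 in Th17n Div.1 cells (limma adjusted p 0.00143). UQCR11, a small subunit of complex III, differed by -0.28 in Th17p and -0.30 in Th17n Div.1 cells, and NDUFB2 by -0.30 in unsorted Th17p cells. Those 3 calls were lost without any of 8, 5 and 5 of the 10 libraries, with limma adjusted p up to 0.174, 0.225 and 0.259. Without the wells of column 10, the differences were -0.30, -0.35 and -0.28, with limma adjusted p 1.41e-06, 7.84e-08 and 2.44e-06. Rescaling ended the calls of UQCR11 in Th17p Div.1 cells and of NDUFB2 (limma adjusted p 0.0907 and 0.131). ATP5G2 was called in both directions, and 33 of the 80 members were called in none of the 4 DHEA comparisons. The matching shares of all genes are not given here, so these counts cannot be set against them.

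Cytokines of Th17 cells and markers of cytotoxic lymphocytes moved beside these results. IL17A and IL17F summed to 98.1 to 287 TPM with DHEA and 1283 to 1906 TPM with methanol in unsorted Th17p cells, and to 704 to 1384 TPM with DHEA and 4429 to 5798 TPM with methanol in unsorted Th17n cells. With EGCG they summed to 118 to 384 TPM, against 1908 to 2757 TPM with DMSO, in unsorted Th17p cells. In Th17n Div.1 cells they were higher with EGCG, at 7346 to 8482 TPM against 3503 to 4423 TPM with DMSO, and in unsorted Th17n cells the groups overlapped, at 5999 to 7468 TPM with EGCG and 6395 to 7764 TPM with DMSO. The 7 T cell markers summed to 2625 to 2796 TPM with EGCG and 1846 to 2001 TPM with DMSO in unsorted Th17p cells, and to 2356 to 2525 TPM with DHEA and 1940 to 2183 TPM with methanol. CD8A, CD8B1, NKG7, KLRD1, KLRK1, NCR1, EOMES, GZMB and PRF1 summed to 87.8 to 139 TPM with DHEA and 21.2 to 31.8 TPM with methanol in unsorted Th17p cells, and to 32.9 to 47.3 TPM with DHEA and 18.3 to 26.9 TPM with methanol in unsorted Th17n cells. CD8A stood at 0 to 0.557 TPM over all libraries, NCR1 was at 0 in 74 of them, and GZMB reached 129 TPM. In bulk RNA, fewer cells of a type and less RNA per cell cannot be told apart, and the part of these genes in the members' values was not tested.

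Other genes of mitochondrial energy metabolism are given for context, from lists chosen with earlier results of these data known. With DHEA, 59 of 76 mitochondrial ribosomal proteins were called lower and 3 higher in unsorted Th17p cells (median log2 difference -0.28), and 55 and 2, 54 and 2, and 49 and 1 in Th17p Div.1, Th17n Total and Th17n Div.1 cells. Of 17 enzymes of the citric acid cycle, 13, 15, 13 and 8 were lower, of 17 mobile carriers and exchangers 15, 10, 13 and 9, and of 43 assembly factors of the respiratory chain 22, 16, 15 and 9, in the same order. Of 84 cytosolic ribosomal proteins, 43, 23, 55 and 18 were higher and 4, 7, 4 and 4 lower. With EGCG the mitochondrial ribosomal proteins had 16 higher and 8 lower in unsorted Th17p cells and the cytosolic ribosomal proteins 12 higher and 41 lower. There 30.1% of all genes were called higher and 14.9% lower. The members' 26 lower of 80 in unsorted Th17p cells with DHEA thus stood beside 59 of 76 for the mitochondrial ribosome and 13 of 17 for the citric acid cycle. Of 16 factors for mitochondrial gene expression, 6, 3, 6 and 2 were lower with DHEA. Of all genes, 26.8%, 19.2%, 25.3% and 14.6% were called lower with DHEA in the same order, and 20.9%, 18.1%, 20.8% and 22.1% higher.

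Th17p was compared with Th17n over both solvents. Members moved both ways, and those called in complex III were all higher in Th17p. In unsorted cells 25 of 80 were higher and 18 lower in Th17p (background 30.9% and 26.5%), and in Div.1 cells 25 and 14 (34.9% and 25.7%), where rescaling gave 21 and 20 (30.3% and 29.8%). In complex III 5 of 8 members were higher in unsorted cells and 4 of 8 in Div.1 cells. In complex V 7 of 17 were higher and 4 lower in both sorts, in complex IV 1 of 14 was higher and 4 lower in both, and in complex I 10 of 37 were higher in both and 9 and 6 lower. Over all 80 members the shares were near or below those of all genes. In complexes II, III and V the shares called higher were above that of all genes. Complex II has only 4 members, with 2 higher and 1 lower in unsorted cells (1 and 1 after rescaling) and 3 higher in Div.1 cells. Without well column 10 the counts were 30 and 20 in unsorted cells (30.8% and 25.9% of all genes) and 27 and 25 in Div.1 cells (35.8% and 24.9%), so that more members than genes in general were higher in unsorted cells and lower in Div.1 cells.

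SDHD, a membrane anchor of complex II, was higher in Th17p. In unsorted cells it stood at 247, 231, 244, 225 and 251 TPM in Th17p with DMSO and 264, 260, 265, 261 and 245 TPM in Th17p with methanol, against 216, 199, 193, 193 and 200 TPM in Th17n with DMSO and 203, 198, 198, 199 and 215 TPM in Th17n with methanol. No Th17p library overlapped a Th17n library, and the log2 difference was 0.31 ± 0.03 in unsorted and 0.40 ± 0.03 in Div.1 cells (SE, limma adjusted p 2.62e-13 and 3.7e-17). UQCRC1 was at 653 to 699 TPM in Th17p Div.1 cells and 489 to 548 TPM in Th17n Div.1 cells (log2 difference 0.38 ± 0.03, limma adjusted p 4.37e-21), and differed by 0.21 in unsorted cells. UQCR10, a small complex III subunit, was 0.39 ± 0.08 higher in unsorted and 0.32 ± 0.09 higher in Div.1 cells (limma adjusted p 2.72e-05 and 0.000907), and COX8A 0.31 ± 0.06 higher in unsorted cells (limma adjusted p 1.45e-06), with overlapping groups.

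ATP5H, NDUFB11, COX5A and COX7A1 were lower in Th17p. ATP5H was at 655, 671, 664, 627 and 685 TPM in unsorted Th17p cells with DMSO and 674, 620, 622, 594 and 600 TPM with methanol, against 878, 818, 794, 874 and 880 TPM in unsorted Th17n cells with DMSO and 903, 861, 852, 882 and 764 TPM with methanol. NDUFB11, an X-linked accessory subunit of complex I, was at 178 to 217 TPM in unsorted Th17p cells and 225 to 302 TPM in unsorted Th17n cells, and at 182 to 214 TPM in Th17p Div.1 cells and 246 to 318 TPM in Th17n Div.1 cells. Neither gene overlapped between the cell types. ATP5H differed by -0.41 ± 0.03 in unsorted and -0.50 ± 0.03 in Div.1 cells (limma adjusted p 3.15e-21 and 2.12e-24), and NDUFB11 by -0.36 ± 0.04 and -0.53 ± 0.05 (limma adjusted p 1.02e-10 and 6.66e-16). COX5A, a nuclear-encoded subunit of complex IV, was at 643 to 682 TPM in Th17p Div.1 cells and 745 to 838 TPM in Th17n Div.1 cells (log2 difference -0.26 ± 0.02, limma adjusted p 9.63e-19).

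COX7A1 was low in both types and lower in Th17p, at 0.519 to 2.69 TPM in unsorted Th17p cells and 3.01 to 6.43 TPM in unsorted Th17n cells. Its log2 difference was -1.18 ± 0.18 in unsorted and -1.06 ± 0.19 in Div.1 cells (SE, limma adjusted p 3.09e-08 and 1.3e-06), with no overlap in either. It made up 0.245 ± 0.151% of the sum of COX7A1 and COX7A2 in unsorted Th17p cells with DMSO and 0.892 ± 0.215% in unsorted Th17n cells with DMSO (SD, n = 5 each), so COX7A2 carried nearly all of the pair in both. NDUFA1 was called lower in unsorted Th17p cells (-0.32 ± 0.12, limma adjusted p 0.0156), a call lost without Th17p methanol Total replicate 10 (adjusted p 0.0603) but held without the wells of column 10 (-0.34, adjusted p 1.24e-10). Of the members called in unsorted and Div.1 cells, 22 were higher in Th17p in both, with ATP5A1, ATP5B, NDUFS1 and UQCRFS1 among them, and 13 were lower in both, with COX7A2L and ATP5SL among them. The shares of all genes called in both sorts are not given here.

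The mitochondrial ribosomal proteins, by comparison, had 60 of 76 higher and 3 lower in unsorted Th17p against Th17n cells, the assembly factors 31 of 43 higher and 2 lower, the citric acid cycle 12 of 17 higher and 2 lower, and the cytosolic ribosomal proteins 7 of 84 higher and 24 lower.

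Cells sorted after 1 division were compared with unsorted cells over both solvents. Few members differed in Th17p. There 7 of 80 were higher and 1 lower in Div.1 cells (background 8.63% and 10.8%), and in Th17n 7 were higher and 13 lower (5.8% and 16.1%), which rescaling turned to 15 higher and 7 lower (10.1% and 11.1%). SDHB was at 451, 438, 435 and 432 TPM with DMSO and 445, 471, 458, 431 and 493 TPM with methanol in Th17p Div.1 cells, against 387, 378, 374, 385 and 376 TPM and 422, 420, 401, 406 and 427 TPM in unsorted Th17p cells. The groups did not overlap, and the log2 difference was 0.18 ± 0.03 (limma adjusted p 1.21e-06). NDUFS8 was 0.12 ± 0.02 higher (limma adjusted p 5.86e-05) and UQCRFS1 lower, at -0.10 ± 0.03 (limma adjusted p 0.0158), in Th17p Div.1 cells, and ATP5F1 was 0.15 ± 0.06 higher (limma adjusted p 0.0428), a call lost without any of 12 of the 19 libraries (adjusted p up to 0.105).

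In Th17n the falls in Div.1 cells were led by UQCRB (-0.23 ± 0.06), NDUFS1 (-0.17 ± 0.04) and SDHD (-0.16 ± 0.03), with limma adjusted p 0.00322, 0.00033 and 0.000129, and the rises by ATP5J (0.29 ± 0.08), ATP5H (0.17 ± 0.03) and NDUFB11 (0.16 ± 0.05), with limma adjusted p 0.00266, 9.65e-06 and 0.00785. All 6 kept their direction and their call after rescaling. ATP5J was at 171 to 197 TPM with DMSO and 172 to 211 TPM with methanol in Th17n Div.1 cells, against 107 to 153 TPM with DMSO and 157 to 165 TPM with methanol in unsorted Th17n cells. ATP5H, NDUFB11 and ATP5J were thus higher after 1 division in Th17n, and the first 2 were higher in Th17n than in Th17p. Without Th17n methanol Div.1 replicate 10 the Th17n counts were 19 higher and 13 lower, without Th17n DMSO Div.1 replicate 1 they were 5 and 8, and without well column 10 they were 21 and 11 (5.82% and 16.5% of all genes). In Th17p the counts were 4 and 1 without Th17p methanol Total replicate 8, and 10 and 4 without well column 10 (9.22% and 10.3%).

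Methanol was compared with DMSO as a check of how far the solvents and their positions alone went with the members. In Th17p 2 of 80 members were higher and 9 lower with methanol (background 8.44% and 5.14%), and 2 and 4 after rescaling (10.1% and 5.6%). In Th17n 3 were higher and 12 lower (10.1% and 4.26%), and 1 and 11 after rescaling (8.28% and 6.29%). The share of members called lower was thus above that of all genes in both, except after rescaling in Th17p. NDUFV3 was lower with methanol in both, at -0.26 ± 0.09 in Th17p and -0.37 ± 0.09 in Th17n (limma adjusted p 0.0394 and 0.00208), the first lost without any of 12 of the 19 libraries (adjusted p up to 0.12). NDUFA11 and COX6A1 were lower in Th17p, at -0.16 ± 0.04 and -0.14 ± 0.03 (limma adjusted p 0.00253 and 0.00258), and COX8A in Th17n, at -0.23 ± 0.06 (limma adjusted p 0.00294). SDHB and NDUFS8 were higher in both, SDHB by 0.10 in each and NDUFS8 by 0.08 and 0.12. In Th17n, NDUFA2 was at -0.22 and UQCRFS1 at 0.09, with calls lost without any of 12 and 6 of the 19 libraries (limma adjusted p up to 0.202 and 0.102). Rescaling ended the calls of NDUFV3 in Th17p and of SDHB, NDUFA2 and UQCRFS1 in Th17n (limma adjusted p 0.0792, 0.0505, 0.0623 and 0.094). The Th17p counts were 2 and 5 without Th17p DMSO Total replicate 5 or Th17p methanol Total replicate 9. Without well column 10 they were 2 and 13 in Th17p (7.05% and 6.1% of all genes) and 4 and 7 in Th17n (6.67% and 5.1%).

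Whether the response of a member to a compound differed between cell types or between sorts was tested as a difference of differences. Few members passed. For EGCG, 8 members passed between Th17p and Th17n in unsorted cells (background 19.9%) and 5 in Div.1 cells (17.5%), and 1 passed between Div.1 and Total in Th17p (2.57%) and 15 in Th17n (13.3%). For DHEA, 4 and 5 members passed between cell types in unsorted and Div.1 cells (14.8% and 15.9%), and 5 and 5 between sorts in Th17p and Th17n (9.91% and 6.79%). The members' share was under that of all genes in each of these but EGCG by sort in Th17n, so most of the differences between panels described above, such as a call in 1 cell type and not in another, were not shown to differ.

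Only some of the members that passed are described here. COX4I1 fell more with EGCG in Th17p than in Th17n in unsorted cells, by -0.32 ± 0.09 on the log2 scale (limma adjusted p 0.00945), and so did ATP5O, a stalk subunit of the ATP synthase, by -0.27 ± 0.04 (limma adjusted p 4.73e-07). ATP5O was at 447, 445, 462, 461 and 466 TPM with EGCG, against 540, 543, 548, 516 and 543 TPM with DMSO, in unsorted Th17p cells, and at 494 to 519 TPM with EGCG, against 480 to 506 TPM with DMSO, in unsorted Th17n cells. NDUFB6 and SDHB had the opposite sign, at 0.28 ± 0.06 and 0.18 ± 0.05 (limma adjusted p 0.000321 and 0.00965). In Div.1 cells ATP5G1 differed by -0.27 ± 0.06 and UQCRC1 by -0.19 ± 0.05 (limma adjusted p 0.000314 and 0.00488), and ATP5J by 0.45 ± 0.16 (limma adjusted p 0.0343), a call lost without any of 7 of the 18 libraries. Without Th17n EGCG Total replicate 3 the 8 members in unsorted cells became 5.

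Between sorts, ATP5J had the widest difference for EGCG in Th17n. It was at 170, 138, 149, 103 and 154 TPM with EGCG, against 171, 197, 173 and 171 TPM with DMSO, in Th17n Div.1 cells, and at 175, 157, 189, 157 and 159 TPM with EGCG, against 142, 128, 153, 107 and 151 TPM with DMSO, in unsorted Th17n cells, a difference of -0.64 ± 0.15 (limma adjusted p 0.00224). EGCG libraries were thus the lower ones after 1 division and the higher ones in the unsorted cells. NDUFB6 and UQCRB differed by 0.33 ± 0.06 and 0.39 ± 0.12 (limma adjusted p 0.000132 and 0.0226), and NDUFB11 by -0.28 ± 0.09 (limma adjusted p 0.0298). UQCRB lost its call after rescaling (adjusted p 0.15) and without Th17n DMSO Div.1 replicate 1 (adjusted p 0.0735), and NDUFB11 without any of 8 of the 19 libraries. In Th17p, SDHB at -0.19 ± 0.05 (limma adjusted p 0.0299) was the 1 member called, and was lost without any of 6 of the 19 libraries.

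For DHEA, COX7A2L had a smaller rise in Th17p than in Th17n in unsorted cells, by -0.16 ± 0.05 (limma adjusted p 0.0335, lost without any of 9 of the 20 libraries). SDHB differed by 0.18 ± 0.05 in unsorted cells (limma adjusted p 0.0134). UQCRC1 differed by -0.16 ± 0.05 in Div.1 cells (limma adjusted p 0.0152). Between sorts, NDUFS8 fell more in Div.1 than in Total cells of Th17p, by -0.18 ± 0.05 (limma adjusted p 0.00458), and ATP5B less in Div.1 than in Total cells of Th17n, by 0.17 ± 0.04 (limma adjusted p 0.00634). UQCRFS1 and SDHD differed by 0.20 and 0.19 in Th17p, with calls lost without any of 7 and 15 of the 20 libraries and after rescaling (limma adjusted p 0.0595 and 0.0931). The counts of members in these DHEA differences moved with single libraries, to 12 in Div.1 cells between types and to 10 between sorts in Th17n without Th17n methanol Div.1 replicate 10, and were between 1 and 12 and between 2 and 10 over all libraries left out in turn.

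Most levels of the isoform sets rested on 1 gene. COX6B2 was 0.809 ± 0.348% of the sum of COX6B1 and COX6B2 with EGCG and 0.033 ± 0.031% with DMSO in unsorted Th17p cells (SD, n = 5 each), and 0.772 ± 0.386% with EGCG and 0.099 ± 0.071% with DMSO in unsorted Th17n cells. The pair summed to 899 ± 19.4 TPM with EGCG and 816 ± 16.1 TPM with DMSO in unsorted Th17p cells, so the rise of COX6B2 was a small part of the pair. ATP5G1, ATP5G2 and ATP5G3 were instead of like level, at 31.4 ± 0.727%, 41.1 ± 0.512% and 27.5 ± 1.02% of their sum with DHEA and 34.9 ± 1.08%, 36.8 ± 1.30% and 28.4 ± 1.20% with methanol in unsorted Th17n cells. There ATP5G1 was lower with DHEA and ATP5G2 slightly higher, by -0.23 and 0.08 on the log2 scale, both called (limma adjusted p 0.0309 for ATP5G2), the ATP5G2 call being lost without any of 3 of the 10 libraries. NDUFA4, the second most abundant member, was called in 1 of the 8 compound comparisons (0.21 ± 0.07 with EGCG in unsorted Th17p cells, limma adjusted p 0.0154).

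COX6B2 lies at chr7:4751792-4753094, COX7A2L at chr17:83501918-83517330, UQCRFS1 at chr13:30540308-30545362, NDUFS8 at chr19:3908863-3912774 and ATP5H at chr11:115415689-115419962, all on the minus strand, and COX4I1 at chr8:120668222-120674207 and ATP5B at chr10:128083273-128090391, both on the plus strand, each as the span of the whole gene (mm10, GENCODE vM21).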

How the data were processed

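Polyadenylated RNA was sequenced, per the labels' protocols. The submitters' processing notes name Trimmomatic, kallisto and the build mm10. The authors deposited 1 table of TPM per gene symbol and library. Versions, and how transcripts were summed to symbols, are not given in the sources used here. TPM keep no read counts, so depth and counting error are unknown. None of 152 pairs of libraries within a group held identical values.

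Kept genes (10672) were fitted on log2(TPM + 1), which understates the change of low genes, with limma 3.58.1 in R 4.3.3: a mean for each of 16 groups, trended variance, 78 libraries, 62 residual degrees of freedom, two-sided moderated tests, Benjamini-Hochberg adjustment over all kept genes and a threshold of 0.05. SE are limma's moderated ones. Cell types and sorts were compared over the mean of the solvent groups, and solvents over the mean of the sorts. The fit was tested on simulated data. Replicate numbers are well columns. Libraries of 1 number deviated together by over 0.1 in 25 of 74 pairs (correlations -0.0016 to 0.315). The correlations were mostly small but nearly all above 0, so the check does not show that these libraries are independent. The main fit assumed no pairing, and a replicate block was fitted as an alternative. The members named were, per comparison, the 3 largest called rises and falls with at least 5 TPM, the 2 furthest each way in differences of responses, the isoform sets, core subunits and the 5 highest and 5 lowest by mean; a few others were chosen after their values were seen. Members and lists were chosen with earlier results of these data known. Alternatives were a pseudocount of 0.1, no filter, rescaling by the median ratio, the compared groups alone, a replicate block, well A4 in its labelled group, each library left out and, chosen after seeing the data, well column 10 left out. The individual values of a few genes are not reported here.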

Additional observations from a re-analysis of the deposited data

Results flagged for a closer look

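Of 96 sums over the members or 1 complex in a group, 23 had a library far from the others of its group by Dixon's test, where chance gives about 1 in 20, and 21 of them were the library of well column 10. The sum of all members was lowest by such a gap at 26830.5 TPM in Th17n DHEA Div.1, 28479.3 TPM in Th17p DHEA Total, 27278.2 TPM in Th17n methanol Div.1, 28093.8 TPM in Th17n methanol Total and 29185.3 TPM in Th17p methanol Total. Complex I was lowest at 8735.4, 9331.0, 8734.6, 9024.0 and 9361.4 TPM in those 5 libraries, complex III at 2858.7, 3245.5, 2859.4, 3125.3 and 3527.3 TPM, and complex IV at 5478.7, 5943.2, 5285.7 and 5572.3 TPM in the first 4. Complex V was lowest at 9293.2 TPM in Th17n methanol Total. Complex II was highest in well column 10 of Th17n methanol Div.1, at 1119.8 TPM. The 2 libraries outside column 10 were Th17p EGCG Div.1 column 4, highest for complex I at 12283.4 TPM, and Th17p DMSO Div.1 column 1, highest for complex II at 1150.6 TPM.

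Some of the responses that differed between cell types or sorts by limma's test of the difference are listed here, on the log2 scale. They are a part of the members that passed, whose counts are given above. For EGCG between Th17p and Th17n in unsorted cells they were 0.2825 for NDUFB6, 0.1772 for SDHB, -0.3194 for COX4I1 and -0.2716 for ATP5O, and in Div.1 cells 0.4525 for ATP5J, -0.2688 for ATP5G1 and -0.1925 for UQCRC1. For EGCG between Div.1 and Total they were -0.1944 for SDHB in Th17p and 0.3939 for UQCRB, 0.3317 for NDUFB6, -0.6412 for ATP5J and -0.2798 for NDUFB11 in Th17n. For DHEA between cell types they were 0.1754 for SDHB, 0.1172 for COX5A and -0.1574 for COX7A2L in unsorted cells, and 0.1901 for COX6A1, 0.1809 for NDUFC2 and -0.1616 for UQCRC1 in Div.1 cells. Rescaling ended the calls of COX5A and COX6A1 (limma adjusted p 0.109 and 0.0849). Without well column 10, COX5A, COX7A2L and NDUFC2 were not called (limma adjusted p 0.155, 0.0514 and 0.0986). For DHEA between sorts they were 0.1965 for UQCRFS1, 0.1867 for SDHD, -0.1824 for NDUFS8 and -0.1777 for SDHB in Th17p, and 0.1698 for ATP5B, -0.3092 for NDUFB11 and -0.208 for ATP5H in Th17n. SDHB was not called there in Th17p without well column 10 (limma adjusted p 0.0931).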

How the results depend on the processing

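Counts of members called (higher and lower together) moved by over 1.5 times as follows. With a replicate block by well column, for which no pairing was shown and which could not be fitted for methanol against DMSO, EGCG in unsorted Th17n cells gave 36, DHEA in Th17p and Th17n Div.1 cells 40 each, Div.1 against Total 18 in Th17p and 34 in Th17n, the EGCG differences 13 and 16 between types and 3 between sorts in Th17p, and the DHEA differences 9 and 13 between types and 9 and 12 between sorts. With the compared groups fitted alone, DHEA in Th17n Div.1 cells gave 14, methanol against DMSO in Th17n 6, EGCG between types 14 and 21, EGCG between sorts in Th17p 4, and DHEA between types in Div.1 cells and between sorts in Th17n 1 and 0. Without the filter, Div.1 against Total gave 5 and 13, methanol in Th17p 7, and DHEA between types in Div.1 cells 2. Rescaled, methanol in Th17p gave 6, EGCG between sorts in Th17p 2 and DHEA between sorts in Th17p 3. Without well column 10, Div.1 against Total gave 14 and 32 and DHEA between types in Div.1 cells 12. With well A4 in its labelled group, EGCG between types in Div.1 cells gave 3 and between sorts in Th17n 9. Where no share of all genes is given, a moved count cannot be read as a result about the members. The cause of these moves was not tested, apart from the fewer libraries or genes that some settings use.

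Leaving out 1 library at a time gave 39 to 43, 32 to 37, 15 to 23 and 20 to 26 members for EGCG in Th17p Total, Th17p Div.1, Th17n Total and Th17n Div.1 cells, 29 to 36, 23 to 27, 28 to 32 and 23 to 34 for DHEA in the same order, 39 to 44 and 37 to 47 for Th17p against Th17n in Total and Div.1 cells, 5 to 11 and 13 to 32 for Div.1 against Total in Th17p and Th17n, and 7 to 13 and 10 to 21 for methanol against DMSO. It gave 5 to 9 and 4 to 6 for EGCG between types in Total and Div.1 cells, 0 to 2 and 11 to 16 between sorts in Th17p and Th17n, and for DHEA 2 to 5, 1 to 12, 3 to 6 and 2 to 10. With all libraries the EGCG against DMSO counts were 46, 40, 23 and 29. They lay above the ranges given here, except in unsorted Th17n cells, where 23 was the top of the range. Of the single members' values, 1 reversed, SDHB with EGCG in Th17n Div.1 cells, at -0.0103 rescaled, where it was 0.12 as deposited. Depth, and with it the precision of the low members (COX6B2, COX7A1, COX4I2), is not known from TPM.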

Other observations

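COX4I2, the least abundant member, was called higher with EGCG in unsorted Th17p cells (log2 difference 0.45, limma adjusted p 0.0298), at a mean over all libraries of 0.401 TPM.

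With EGCG in Div.1 cells, the assembly factors of the respiratory chain had 21 of 43 called higher and 3 lower in Th17p and 16 higher and 1 lower in Th17n, and the mitochondrial ribosomal proteins 26 of 76 higher and 6 lower in Th17p and 24 higher and 6 lower in Th17n. The cytosolic ribosomal proteins had 8 of 84 higher and 52 lower in Th17p Div.1 cells and 2 higher and 45 lower in Th17n Div.1 cells. These counts are on TPM as deposited, where the median of all genes was 0.12 and 0.11 higher with EGCG. Of all genes, 33.7% were called higher and 11.9% lower in Th17p Div.1 cells, and 28.1% and 6.77% in Th17n Div.1 cells. The mitochondrial ribosomal proteins were thus called higher about as often as all genes.

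In Th17p against Th17n Div.1 cells the citric acid cycle had 15 of 17 called higher, the mobile carriers and exchangers 13 of 17 higher and 2 lower, and the cytosolic ribosomal proteins 4 of 84 higher and 47 lower. Of all genes, 34.9% were called higher and 25.7% lower there.

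The library of well A4, labelled Th17n DMSO Div.1, had 677 TPM of ATP5H, where the other libraries of that label had 890 to 1011 TPM and those of Th17p DMSO Div.1 had 681 to 700 TPM.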
